A study of Mus musculus with 30 samples.

Results

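The comparison described here is that of NIH/3T3 cells after 5 h of cycloheximide with the same line at 0 h, in 3 libraries each. These 6 libraries are part of a series of 30, and all 13941 genes that passed a filter on low counts, of 57186 identifiers, entered the test. NIH/3T3 is a mouse embryonic fibroblast line, grown here in DMEM with 10% fetal bovine serum. Every library carried the same genotype label, a knock-in of SLT at ROSA26, so no comparison of this knock-in with unmodified cells is possible. The label of 0.1 µg/mL cycloheximide stands on the 0 h samples too, and 0 h is taken here as the time before any exposure. The series also holds NIH/3T3 at 1, 2 and 48 h and the mouse embryonic stem cell line CGR8 at the same times, which serve below only to place the 5 h values. No untreated culture of the same age stood beside the 5 h samples, so the effects of cycloheximide and of 5 h in culture cannot be told apart. Nothing in the labels says that the replicates came from separate cultures, and the p-values measure only the spread between these samples, which may be technical.

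Cycloheximide binds the ribosome and blocks the elongation step of protein synthesis. Its effects on messenger RNA are textbook knowledge: a short-lived protein that represses transcription or drives decay is lost, so that immediate-early transcripts accumulate, and an mRNA whose decay needs translation is stabilised. Short-lived activators are lost as well, and the mRNAs that depend on them then fall. In fibroblasts grown in serum the immediate-early genes and their feedback inhibitors are classical readouts of such short-lived regulators. Sterol genes are controlled by SREBP and many chaperone genes by heat-shock factor. Protein levels were not measured here, so the loss of any regulator was not tested.

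The sequences below are those of 3 promoters, shown because their genes stand for the largest rise and for the sterol genes, which fell. Txnip and Arrdc4 encode alpha-arrestins and are known targets of the glucose-sensing Mondo factors. These bind E-box-like elements, searched for here only as the exact letters CACGTG. Hmgcs1 encodes cytosolic HMG-CoA synthase, an enzyme of sterol synthesis and a known target of SREBP, whose element was searched for as TCACNCCAC. Each run covers the 250 bases before the start site, 5′ to 3′ on the gene's strand, from RefSeq on GRCm38.p6. Capitals mark the motif searched for in that gene, on both strands. The 3 regions are chr3:96557707-96557956 on the plus strand for Txnip, chr7:68749239-68749488 on the minus strand for Arrdc4 and chr13:119690101-119690350 on the plus strand for Hmgcs1.
Txnip: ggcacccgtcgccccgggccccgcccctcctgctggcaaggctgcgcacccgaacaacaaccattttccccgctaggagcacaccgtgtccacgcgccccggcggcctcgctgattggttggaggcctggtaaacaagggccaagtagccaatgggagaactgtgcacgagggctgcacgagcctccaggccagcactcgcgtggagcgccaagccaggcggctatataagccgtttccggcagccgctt
Arrdc4: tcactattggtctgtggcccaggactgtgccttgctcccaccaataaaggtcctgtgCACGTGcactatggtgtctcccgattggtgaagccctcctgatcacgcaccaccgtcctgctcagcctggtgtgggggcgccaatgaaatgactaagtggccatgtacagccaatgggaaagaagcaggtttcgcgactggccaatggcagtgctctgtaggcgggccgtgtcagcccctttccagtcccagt
Hmgcs1: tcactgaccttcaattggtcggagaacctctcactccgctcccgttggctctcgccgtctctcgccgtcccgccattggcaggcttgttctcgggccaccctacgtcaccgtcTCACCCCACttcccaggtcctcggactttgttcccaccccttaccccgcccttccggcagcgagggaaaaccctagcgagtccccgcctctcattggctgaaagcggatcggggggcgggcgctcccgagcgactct
The Txnip window held no CACGTG, the Arrdc4 window held 1 that began 193 bases before the start, and the Hmgcs1 window held 1 TCACNCCAC that began 137 bases before the start. In windows of 250 bases before to 50 after the start, CACGTG stood in 9.81% of the 12151 windows of tested genes and in 7.15% of all 32851 in the table, and TCACNCCAC in 1.18% and 1.24%. All 5 alpha-arrestins were matched, and 1 of their 7 windows held CACGTG. Of the 30 sterol genes 20 were matched, and 1 of their 26 windows, that of Hmgcs1, held TCACNCCAC. A match is a description of letters and not a bound site. Inexact forms of either motif were not searched for, so a window without a match may still hold a site.

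Totals ranged from 20.2 to 30.5 M counts over the 6 libraries. Collagen 1 (Col1a1, Col1a2) and vimentin were among the most abundant transcripts, as in fibroblasts, whereas the fibroblast markers Thy1 and Postn lay under 1 CPM (the count scaled to a common library total) and Fap was at 0 in all 6 libraries. The summed level of the 15 fibroblast markers was 12074 to 13206 CPM at 0 h and 9356 to 10126 CPM at 5 h. Of 9 stem cell markers, 7 lay under 1 CPM in all 6 libraries, and the other 2, Sox2 and Klf2, are also expressed outside stem cells. The mitochondrial genes summed to 4393 to 6749 CPM at 0 h and 3876 to 4190 CPM at 5 h. On the second principal component of all 15 NIH/3T3 libraries, which held 20.7% of the variance, the 5 h libraries lay from -41 to -37 and the 0 h libraries from 21 to 28. A pair of libraries at other times stood apart from their groups: 1 h replicate C lay at 27.4 on the first component, compared with -1.81 and -4.74 for the other 1 h libraries, and 2 h replicate A at 25 on the second, compared with -4.51 and -2.06. The 1 h and 2 h values below and the shared estimate of spread rest in part on them. Without both, a fit added after seeing the data, 9177 genes were called at 5 h, compared with 7112 with them, and the 1 h and 2 h values of single genes given below moved by at most 0.24 on the log2 scale.

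After 5 h 7112 genes differed from 0 h, in similar numbers up and down, and most by less than 2-fold. Calls were made by edgeR's quasi-likelihood test where the adjusted p was under 0.05. Of all genes tested 51% were called, 24% higher and 27.1% lower, which are 3339 and 3773 genes. A fitted change of at least 2-fold was called for 652 genes (4.68%) upward and 685 (4.91%) downward, and one of at least 4-fold for 57 and 62. The 3 libraries at 5 h lay wholly to one side of the 3 at 0 h for 9321 genes (66.9%). The median log2 fold change of all genes was -0.01, and 90% of genes lay between -1.03 and 1.00. These shares are the background against which every gene group below is to be read.

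**Figure D1:**
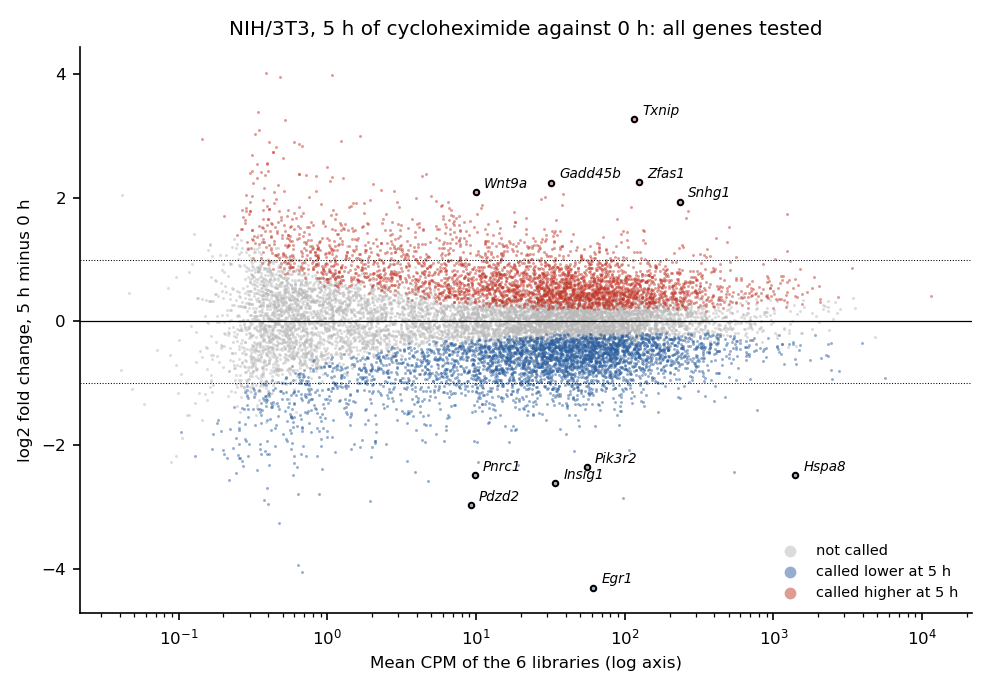
Mean CPM of each tested gene over the 6 libraries (horizontal, log axis) against its log2 fold change from 0 h to 5 h (vertical), with called genes in colour and some of the genes of largest change named. The 3339 genes called higher and the 3773 called lower spread over the whole range of levels, with Txnip highest and Egr1 lowest among those named.

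Txnip showed the largest rise of any gene named by the rule, 9.67-fold. It encodes thioredoxin-interacting protein, an alpha-arrestin that limits glucose uptake and binds thioredoxin. Txnip (ENSMUSG00000038393) stood at 20.7, 19.4 and 24.4 CPM in the 0 h libraries and at 206, 216 and 203 CPM in the 5 h libraries (log2 fold change 3.27, SE 0.17, adjusted p 1.16e-09). The groups were far apart, and the rise was already 2.15 on the log2 scale at 1 h and 2.77 at 2 h, measured against the same 0 h libraries. Its relative Arrdc4, which also restrains glucose transporters, stood at 10.7, 11.8 and 10.7 CPM at 0 h and at 42.7, 41.4 and 45.9 CPM at 5 h (log2 fold change 1.97, SE 0.09, adjusted p 4.08e-10). Unlike that of Txnip, its value at 1 h was only 0.26. Arrdc3 rose from 22.8 to 27.8 CPM at 0 h to 44.6 to 47.1 CPM at 5 h (0.88 on the log2 scale, SE 0.13), after 2.12 at 2 h. Arrdc2 fell, from 5.85 to 7.10 CPM to 3.40 to 3.58 CPM (log2 fold change -0.84, SE 0.14). Arrdc1 was not called, at -0.17 (SE 0.11). The alpha-arrestins thus did not move as a family: 3 of 5 rose, 1 fell and 1 was not called.

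The other genes with the largest rises fell into several kinds. Gadd45b, a stress-induced sensor that activates MAP kinase signalling, stood at 10.6, 10.5 and 12.3 CPM at 0 h and at 61.0, 49.8 and 47.8 CPM at 5 h (log2 fold change 2.24, SE 0.13, adjusted p 3.89e-09). Tnc, which encodes the matrix glycoprotein tenascin C, went from 123, 116 and 118 CPM to 373, 409 and 453 CPM (log2 fold change 1.79, SE 0.15). The groups of both did not overlap, which the rule for the largest rises required and which held for 66.9% of all genes. The Wnt ligand gene Wnt9a (2.09, SE 0.15), the sphingosine kinase gene Sphk1 (1.89, SE 0.12) and the interferon-inducible gene Ifi202b (2.07, SE 0.35) rose by similar log2 amounts, as did Pspc1, a paraspeckle protein gene (2.02, SE 0.19), Medag (1.88), the protease inhibitor gene Serpinb1a (1.83) and Bbs10, a chaperonin-like gene of the cilium (1.80). The zinc-finger genes Zfp759 (1.93) and Zfp978 (1.84), and the small nucleolar RNA hosts Zfas1 and Snhg1 described below, complete the 15. Several of these began low: Wnt9a rose from 3.65 to 4.01 CPM at 0 h to 15.5 to 17.3 CPM at 5 h.

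The genes that rose at least 2-fold were of another make-up than the rest. Only 58.4% of them were protein-coding, compared with 82.1% of all genes tested and 86.9% of the genes that fell at least 2-fold. They included 126 long noncoding RNA genes, of 894 tested, and 96 pseudogenes, of 1116 tested. Their median level at 0 h was 1.65 CPM, compared with 22.1 CPM over all genes tested and 7.57 CPM in the genes that fell at least 2-fold. At 5 h these medians were 4.24, 21.1 and 3.06 CPM, so the genes that fell were also of low level. Low levels widen the spread of fold changes, and its part in this make-up was not tested.

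Egr1 showed the largest fall of any gene named by the rule, 19.8-fold, after it had risen at 1 and 2 h. It encodes a zinc-finger transcription factor and is a classical immediate-early gene of serum and ERK signalling. Egr1 (ENSMUSG00000038418) stood at 125, 108 and 118 CPM at 0 h and at 6.22, 5.15 and 6.37 CPM at 5 h (log2 fold change -4.31, SE 0.20, adjusted p 3.96e-10). Against the same controls its log2 fold change had been 2.31 after 1 h and 2.50 after 2 h, so that the 5 h value lay on the other side of the 0 h level. Egr2, Egr3 and the nuclear receptor gene Nr4a1 were likewise higher at 2 h and lower at 5 h, with log2 fold changes at 5 h of -1.13 (SE 0.16), -2.26 (SE 0.36) and -0.96 (SE 0.20). Egr2 stood at 14.3, 13.0 and 13.6 CPM at 0 h and at 6.76, 5.06 and 6.88 CPM at 5 h. Nab2 encodes a co-repressor that EGR factors themselves induce, and it rose by 0.84 (SE 0.10), from 28.1 to 32.6 CPM to 50.7 to 58.0 CPM. Of the 13 tested members of the EGR and NR4A list 7 fell and 5 rose at 5 h. Of the 10 that were higher at 2 h, 7 were lower and 3 higher at 5 h. The 2 h and 5 h values share their 0 h libraries, so these counts are given side by side and not as a test.

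The AP-1 family, which pairs FOS and JUN proteins on DNA, also lay mostly below its 0 h level at 5 h. Of 12 members tested, 7 fell and 1, Atf3, rose. Junb, chosen here after its values were seen, stood at 59.1, 55.9 and 63.5 CPM at 0 h and at 27.1, 23.8 and 27.9 CPM at 5 h (log2 fold change -1.18, SE 0.16, adjusted p 2.14e-05), after a rise of 3.30 at 2 h. Fosl1, which encodes the FOS relative FRA1, had not been called higher at 2 h and fell from at least 40.4 CPM in each 0 h library to 15.3, 13.7 and 14.9 CPM (log2 fold change -1.59, SE 0.12). Jun fell by 0.50 on the log2 scale (SE 0.10), a call that was lost when GC and length trends were removed (-0.16). Atf3, a stress-induced repressor of the same family, stood at 2.86, 3.03 and 3.71 CPM at 0 h and at 8.36, 7.49 and 8.46 CPM at 5 h (log2 fold change 1.32, SE 0.22), less than the 3.65 at 2 h. Fos itself was under 1 CPM in all 6 libraries and was not called. Of the 9 members higher at 2 h, 4 were lower, 1 was higher and 4 were not called at 5 h.

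Genes that restrain ERK signalling moved in both directions. Of the Sprouty genes, which encode inhibitors upstream of ERK, Spry2 and Spry4 fell by 1.03 (SE 0.09) and 1.56 (SE 0.16) on the log2 scale, and Spry1 rose by 0.40. Spry4 stood at 18.8, 19.9 and 17.0 CPM at 0 h and at 6.18, 5.78 and 6.88 CPM at 5 h. Among the phosphatases that remove phosphate from ERK and its relatives, Dusp14 rose by 0.64 (SE 0.09), Dusp1 by 0.31 (SE 0.11), and Dusp6 was not called at 0.17 (SE 0.09). In the other direction Dusp8 fell by 0.96, Dusp4 by 0.78 and Dusp7 by 0.33, and these 3 and Spry1 are named after their values were seen. The split within the Sprouty genes and within the phosphatases, as shown here, rests on these added genes. Dusp1 lost its call in some fits with 1 library left out (range of all alternatives 0.27 to 0.51). Over the 17 tested members 8 fell (47.1%) and 3 rose. The regulators of mRNA decay moved in 1 direction only: 8 of 16 fell and none was called higher. Zfp36, which encodes tristetraprolin, a protein that brings AU-rich mRNAs to deadenylation, stood at 14.1, 12.9 and 14.5 CPM at 0 h and at 5.60, 4.64 and 6.09 CPM at 5 h (log2 fold change -1.35, SE 0.17, adjusted p 7.88e-06). Its relative Zfp36l1 fell by 0.84 (SE 0.15). Over all tested genes, the pentamer ATTTA, the core of AU-rich elements, occurred 1.80 times per kb of annotated 3′ untranslated region, 2.21 times in genes called higher and 1.41 times in genes called lower. GC content moved with it, as described below, and its part in this difference was not tested.

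**Figure D2:**
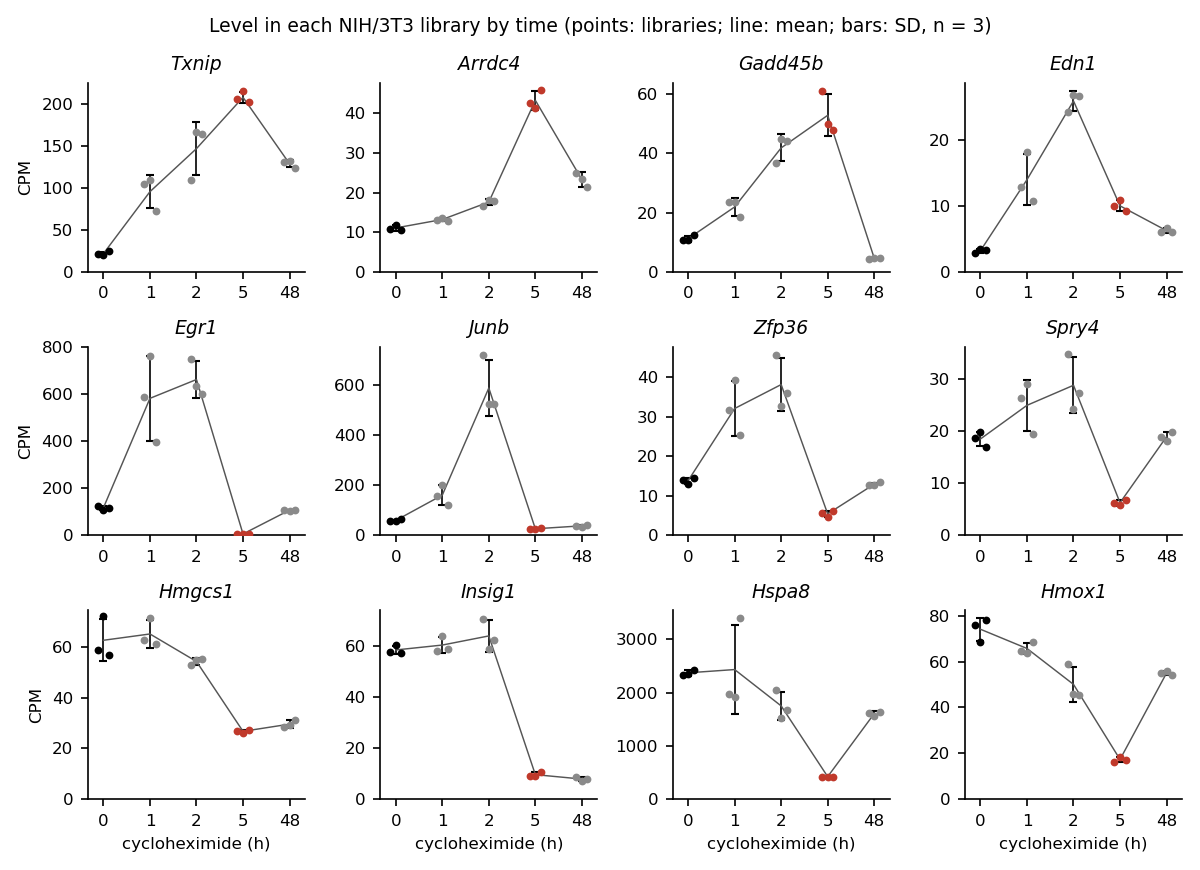
Level (CPM, vertical, from 0) of 12 genes in each NIH/3T3 library at 0, 1, 2, 5 and 48 h of cycloheximide (horizontal, times evenly spaced), with points for libraries, lines through the means of 3 and bars for the SD. Egr1, Junb, Zfp36 and Spry4 stand above their 0 h level at 2 h and below it at 5 h, Txnip, Arrdc4, Gadd45b and Edn1 above it at 5 h, and Hmgcs1, Insig1, Hspa8 and Hmox1 below it at 5 h.

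Genes of secreted and surface proteins of the serum response were called higher more often than lower. Of 25 tested members 15 (60%) rose, compared with 24% of all genes, and 4 (16%) fell, with a median log2 fold change of 0.49. Edn1, which encodes the vasoconstrictor endothelin 1, stood at 2.86, 3.37 and 3.29 CPM at 0 h and at 9.97, 10.8 and 9.16 CPM at 5 h (log2 fold change 1.65, SE 0.17, adjusted p 1.44e-06). The neutrophil chemokine gene Cxcl1 went from 1.93, 1.11 and 1.71 CPM to 6.39, 6.21 and 6.23 CPM (1.99, SE 0.51). In both of these the libraries of the 2 times stood apart, as they did for 66.9% of all genes. The monocyte chemokine gene Ccl2 rose by 0.86 (SE 0.15), which was 0.25 and not called after GC and length trends were removed. Ptgs2, the gene of cyclooxygenase 2, went the other way, from 559, 617 and 471 CPM to 351, 328 and 397 CPM (-0.61, SE 0.21), and lost its call in some fits with 1 library left out. Hbegf, a growth factor gene, was not called at -0.14 (SE 0.10). Of the 20 members higher at 2 h, 11 were higher and 4 lower at 5 h. The inhibitors of NF-kB Nfkbia and Tnfaip3 rose by 0.61 (SE 0.09) and 1.37 (SE 0.26), the A20-binding gene Tnip1 fell by 1.22 (SE 0.12), and the list of 15 had 5 members called in each direction, or 5 higher and 3 lower with GC and length trends removed.

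Genes of sterol synthesis and uptake fell together at 5 h, with the gene of the sterol sensor INSIG1 among the largest falls. Of 28 members tested 23 (82.1%) fell, compared with 27.1% of all genes, and none rose. Their median log2 fold change was -0.66, and it had been 0.01 at 1 h and 0.00 at 2 h, against the same controls. Insig1 (ENSMUSG00000045294) stood at 57.9, 60.4 and 57.3 CPM at 0 h and at 9.15, 9.02 and 10.6 CPM at 5 h, 6.11-fold lower (log2 fold change -2.61, SE 0.10, adjusted p 1.2e-10). Its replicates differed little beside the change. The regulator gene Srebf2 fell by 1.09 (SE 0.11), and Hmgcs1, shown with its promoter above and named for it, by 1.23 (SE 0.10). The fall of Hmgcs1 was from 58.9, 72.2 and 57.1 CPM to 27.1, 26.1 and 27.1 CPM. Under every alternative tried 19 to 25 of the sterol genes were called lower.

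Fatty-acid genes, which share SREBP control, were also mostly lower. Of 16 members 14 (87.5%) were lower and none was higher, with a median of -0.64. The desaturase gene Scd2 went from 1191, 1145 and 1069 CPM to 420, 403 and 432 CPM (log2 fold change -1.44, SE 0.11). Its paralog Scd1, which shares sequence with it, fell by 0.60 (SE 0.10). Fatty acid synthase (Fasn) fell by 1.20 (SE 0.16), and the acetyl-CoA carboxylase gene Acaca by 0.45 (SE 0.12), the last not called after GC and length trends were removed (-0.14). Lpin1, a phosphatidate phosphatase gene outside this list, was among the 15 largest falls, from 18.5, 16.3 and 16.7 CPM to 3.13, 3.10 and 4.37 CPM (-2.28, SE 0.17).

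Heat-shock chaperones fell as well. Of 15 tested members 12 (80%) were lower and 1, Hspe1, was higher. Hspa8 (ENSMUSG00000015656), the constitutive HSP70, stood at 2340, 2346 and 2432 CPM at 0 h and at 420, 424 and 419 CPM at 5 h, 5.63-fold lower (log2 fold change -2.49, SE 0.17, adjusted p 4.66e-08). Its inducible relative Hspa1b went from 5.88, 5.98 and 7.69 CPM to 0.989, 1.19 and 1.44 CPM (-2.44, SE 0.19). The cochaperone gene Dnajb1 fell from 127, 131 and 147 CPM to 57.8, 53.3 and 53.1 CPM (-1.30, SE 0.14), and Hsph1, of the HSP110 family, by 1.29 (SE 0.10). These 4 encode parts of one HSP70 machine. Hsp90ab1, the constitutive HSP90, was lower by only 0.35 (SE 0.09), from 4241 to 4589 CPM to 3436 to 3566 CPM. Hspe1, the mitochondrial co-chaperonin, was higher by 0.43 (SE 0.14), which was not called after GC and length trends were removed (0.17). Hspa8 hosts small nucleolar RNAs on its own strand, and reads of both would be counted together.

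**Figure D3:**
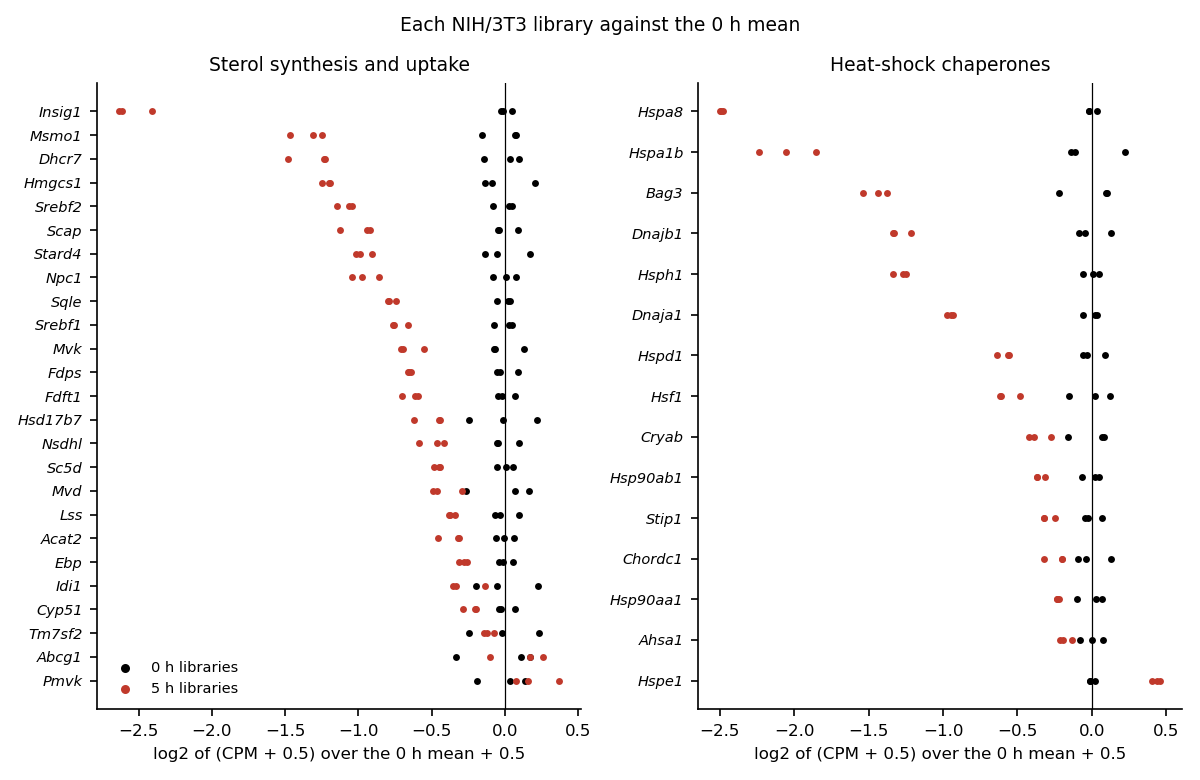
Log2 ratio of each 0 h and each 5 h library to the 0 h mean (horizontal, 0.5 CPM added to both) for 25 of the sterol genes and the 15 heat-shock chaperones (1 gene per line), with 3 points for each time. Of the 25 sterol genes plotted 21 and of the 15 chaperones 14 have all 3 libraries at 5 h below all 3 at 0 h. The same holds for 4818 of all 13941 genes tested.

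Other stress programmes lay below their 0 h levels too. In the NRF2 antioxidant list 15 of 19 members (78.9%) fell and none rose. Hmox1, heme oxygenase 1, stood at 75.8, 68.4 and 78.1 CPM at 0 h and at 16.4, 18.4 and 17.1 CPM at 5 h (log2 fold change -2.10, SE 0.10, adjusted p 6.77e-10). Of the subunits of the enzyme that limits glutathione synthesis, Gclm fell by 1.37 (SE 0.08) and Gclc by 0.47 (SE 0.09), while Nqo1, the quinone reductase gene often used as a reporter of NRF2, was not called at 0.20 (SE 0.16). In the ATF4 list, the programme of amino-acid stress, 23 of 34 (67.6%) fell and 3 rose. Atf4 itself was one of the 3, going from 407, 417 and 448 CPM to 727, 681 and 666 CPM (0.71, SE 0.10), whereas its target Trib3 went from 8.45, 9.35 and 11.1 CPM to 2.92, 2.08 and 2.56 CPM (-1.94, SE 0.17). Ddit3, the gene of CHOP, was not called at 0.20 (SE 0.14). Asparagine synthetase (Asns) fell by 0.35 (SE 0.12) and lost this call in some fits with 1 library left out. Among p53 targets 11 of 19 (57.9%) fell and 4 rose, or 12 and 2 with GC and length trends removed. Zmat3, which encodes an RNA-binding protein, fell by 1.35 (SE 0.12), Trp53inp1 by 1.36 (SE 0.19), the p53 ligase gene Mdm2 by 0.51 (SE 0.08), and Plk2, a kinase gene that is also induced by serum, rose by 0.93 (SE 0.10). In the endoplasmic reticulum list 9 of 20 fell and none rose. Its regulator Xbp1 fell by 1.12 (SE 0.09), from 98.5 to 105 CPM to 43.9 to 47.9 CPM, while the chaperone gene Hspa5, read as a marker of the unfolded protein response, was not called at -0.18 (SE 0.09).

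Genes that encode the ribosome and the respiratory chain were called higher far more often than lower, by small amounts. Of 76 cytosolic ribosomal protein genes 35 (46.1%) were higher and none was lower, with a median of 0.34 and none past 2-fold. Rps27a, which encodes ubiquitin fused to a ribosomal protein, went from 1013, 1049 and 1154 CPM to 2073, 1867 and 1865 CPM (log2 fold change 0.85, SE 0.17). Of 78 mitochondrial ribosomal protein genes 48 (61.5%) rose and 2 fell. Mrps22 went from 47.5, 53.6 and 52.5 CPM to 98.0, 103 and 94.5 CPM (0.94, SE 0.11). Of 73 respiratory chain subunits 34 (46.6%) rose and none fell, and Ndufb4 rose by 0.89 (SE 0.19). These are short transcripts, and short transcripts were higher at 5 h as a class. After trends on GC content and length were removed, the counts higher and lower were 28 and 10 for the cytosolic ribosome, 46 and 5 for the mitochondrial ribosome, and 11 and 7 for the respiratory chain. Without 0 h replicate A the counts higher were 22 for the cytosolic ribosome and 22 for the respiratory chain, and without 5 h replicate A 21 for the cytosolic ribosome. Ribosomal protein genes share sequence with many pseudogenes, which makes their counts uncertain. Proteasome subunits rose in 19 of 32 cases and fell in 2. Psmc6, an ATPase of the regulatory particle, rose by 0.76 (SE 0.13) and Adrm1, a ubiquitin receptor of the same particle, fell by 0.89 (SE 0.10). The proteasome counts were 11 and 2 with the trends removed, where Psmc6 was 0.14 and not called, and 12 and 2 without 0 h replicate A and without 5 h replicate B.

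The hosts of small nucleolar RNAs are spliced transcripts with short reading frames, known to be degraded by nonsense-mediated decay when they are translated. Of 12 tested members 5 (41.7%) rose and none fell. Zfas1 stood at 37.6, 43.9 and 47.7 CPM at 0 h and at 219, 204 and 195 CPM at 5 h (log2 fold change 2.25, SE 0.54, adjusted p 0.00255). Snhg1 went from 95.9, 95.1 and 99.9 CPM to 359, 396 and 360 CPM (1.94, SE 0.36). Replicates of both were close, while the standard error, which shares its estimate of spread with the other times, was large. Snhg12 rose by 1.01 (SE 0.39) and lost its call in 9 of the 16 alternatives, and Gas5 by 0.58 (SE 0.17), which was not called with GC and length trends removed (0.28). SR proteins are splicing factors whose mRNAs include poison exons subject to the same decay. A list of SR proteins, splicing kinases and other splicing-related genes gave 9 higher and 1 lower of 22. Srsf7 went from 225, 238 and 232 CPM to 587, 627 and 556 CPM (1.35, SE 0.11) and Srsf3 from 362, 376 and 366 CPM to 763, 759 and 743 CPM (1.04, SE 0.13), and Srsf2 was not called at 0.06 (SE 0.09). Counts per gene do not separate isoforms, so a poison exon was not measured. Nop56, a core protein of box C/D small nucleolar particles and itself a host, rose by 0.93 (SE 0.12), within a ribosome biogenesis list of 26 with 12 higher and 4 lower, the latter 2 without 0 h replicate C or 5 h replicate A.

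Zinc-finger genes with Zfp symbols, taken by symbol alone, formed the largest list. Many Zfp genes encode DNA-binding repressors of the KRAB class, but the class of each member was not checked. The list also holds Zfp36, described above. Of 308 tested 163 (52.9%) rose and 48 (15.6%) fell, and 64 (20.8%) rose at least 2-fold, compared with 4.68% of all genes. Zfp759 went from 2.32, 3.50 and 2.24 CPM to 10.1, 10.6 and 9.90 CPM (log2 fold change 1.93, SE 0.17). Zfp521, one of the 48 that fell, went from 32.1, 29.3 and 28.8 CPM to 10.8, 11.2 and 11.9 CPM (-1.41, SE 0.13). Direction followed base composition: the median transcript GC content was 40.1% in those that rose and 55.5% in those that fell. Under 42% GC, 88.4% of 121 Zfp genes rose and none fell, compared with 46.8% and 6.71% of 1357 other genes. At 52% GC or more, 10% of 70 Zfp genes rose and 44.3% fell, compared with 12.7% and 42.1% of 5261 other genes. With the GC trend over all genes removed, 128 were called higher and 39 lower, and 148 and 30 with the length trend removed as well.

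This trend ran through the whole transcriptome. Of 5 equal groups of genes by GC content, the lowest had 45.1% called higher and 7.64% lower, and the highest 9.21% and 49.2%. Of 5 equal groups by transcript length, the shortest had 33.4% higher and 7.02% lower, and the longest 14.2% and 37.6%. The difference in median log2 ratio between the lowest and the highest GC group was 0.64, 0.76 and 0.69 in the 3 libraries at 5 h. Among the 0 h libraries, each set against the other 0 h libraries, it was 0.01, 0.27 and -0.28. No 0 h library therefore reached the value of any 5 h library. For length the difference between the shortest and the longest group was 0.53, 0.54 and 0.41 at 5 h and -0.07, -0.11 and 0.20 at 0 h. Counts with both trends removed are given beside each gene group for which a count of 4 or more moved by over 1.5 times.

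**Figure D4:**
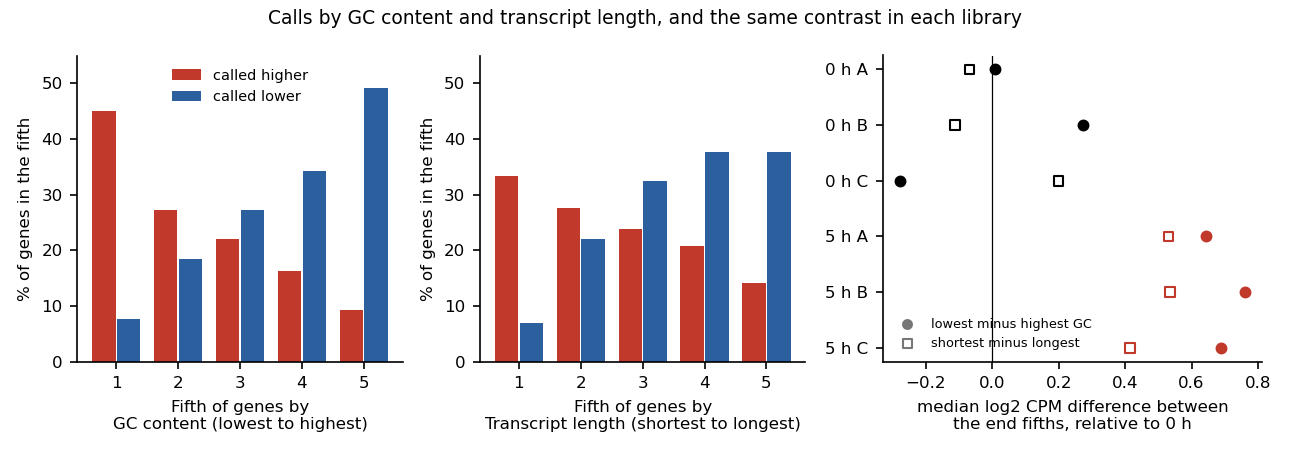
Percent of genes called higher and lower at 5 h (vertical) in 5 equal groups of the tested genes by transcript GC content and by transcript length (horizontal), with the difference in median log2 CPM between the end groups, relative to 0 h, for single libraries in the right panel. The lowest GC group has 45.1% higher and 7.64% lower, the highest 9.21% and 49.2%.

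Structural genes of the fibroblast fell more often than they rose. In the matrix list 18 of 28 (64.3%) were lower and 3 were higher, but 10 and 4 once GC and length trends were removed. Col4a1, a basement membrane collagen gene, went from 715, 732 and 769 CPM to 364, 365 and 425 CPM (log2 fold change -0.94, SE 0.13). Col1a1 and Col1a2 fell by 0.79 (SE 0.16) and 0.55 (SE 0.13), and with both trends removed they were at -0.15 and -0.06 and not called. Timp3, an inhibitor of matrix proteases, went the other way, from 700, 698 and 635 CPM to 1366, 1329 and 1401 CPM (1.01, SE 0.12). Fibronectin (Fn1) rose by 0.44 (SE 0.16), a call lost in some fits with 1 library left out, and the lysyl oxidase gene Lox was not called at 0.11 (SE 0.10). Of actin and its partners 10 of 16 were called lower and 2 higher, but 6 and 3 with both trends removed and 4 and 3 with the GC trend alone removed. Only 4 were lower without 0 h replicate C or 5 h replicate B, and 6 without 0 h replicate A, 5 h replicate A or 5 h replicate C. Actb fell from 7485, 6736 and 7866 CPM to 3752, 4034 and 3969 CPM (-0.91, SE 0.14). Tubulin genes, whose mRNAs are known to be degraded during translation when free tubulin is abundant, gave 6 lower and 1 higher of 11, a direction that turned to 2 lower and 3 higher with the GC trend removed, and was 3 and 2 with both trends removed. Without 0 h replicate C, 3 were lower and none was higher. Tubb5 fell by 0.63 (SE 0.13) and Tuba1b by 0.45 (SE 0.16), the latter called in 9 of the 16 alternatives.

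The cell cycle genes moved unequally. In the list of G2 and mitosis 16 of 29 (55.2%) fell and 2 rose, whereas DNA replication genes gave 6 in each direction of 29, or 7 higher and 10 lower with GC and length trends removed. The mitotic kinase gene Plk1 stood at 136, 119 and 139 CPM at 0 h and at 57.9, 55.7 and 61.8 CPM at 5 h (log2 fold change -1.17, SE 0.12, adjusted p 1.79e-06). Aurka, another mitotic kinase gene, fell by 0.46 (SE 0.10). In the G1 list 9 of 16 fell, among them the CDK inhibitor gene Cdkn1a by 0.91 (SE 0.08), cyclin D1 (Ccnd1) by 0.44 (SE 0.08) and E2f1 by 1.15 (SE 0.11), while cyclin E2 (Ccne2) rose by 0.96 (SE 0.12). E2f1 went from 83.3, 79.7 and 84.0 CPM to 38.7, 34.4 and 38.4 CPM. In signalling, Pik3r2, a regulatory subunit of PI3 kinase, was among the steepest falls, from 93.8, 84.2 and 99.7 CPM to 18.2, 18.4 and 17.8 CPM (-2.35, SE 0.09), and had been at -1.91 at 2 h. Other genes among the 15 largest falls were Pdzd2 (-2.98, SE 0.26), the nuclear receptor coactivator gene Pnrc1 (-2.49), the transporter gene Slc45a4 (-2.33), Srd5a1, a steroid reductase gene (-1.96), Narf (-1.95), Fam102a (-1.93) and Tsc22d4 (-1.82). Pdzd2 stood at 17.1, 17.1 and 14.8 CPM at 0 h and at 1.65, 2.08 and 2.51 CPM at 5 h.

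**Figure D5:**
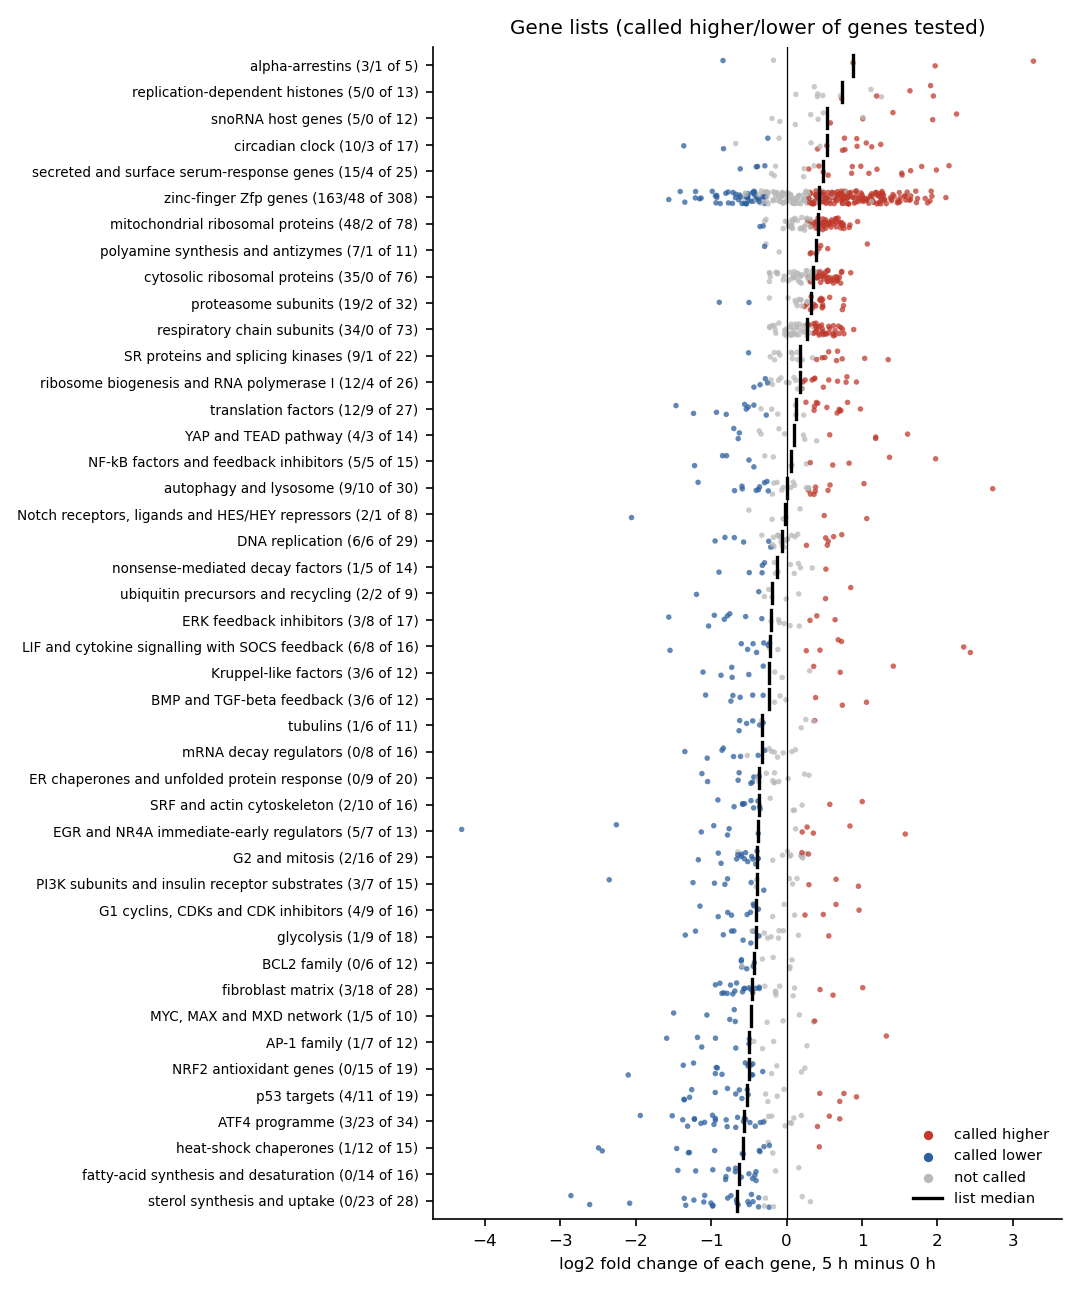
Log2 fold change at 5 h of each tested member of each gene list (horizontal, 1 list per line), coloured as called higher, called lower or not called, with a bar at the list median and the counts beside the name. Among the lists lying furthest to the left are sterol synthesis, with a median of -0.66, and fatty-acid synthesis, with -0.64, while secreted serum-response genes lie to the right, with 0.49.

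The 10 most abundant genes at 0 h changed by at most 0.93 on the log2 scale. Eef1a1, elongation factor 1A, went from 9613, 10018 and 10112 CPM to 13308, 13804 and 12506 CPM (log2 fold change 0.41, SE 0.14), a call lost in 7 of the 16 alternatives. Elongation factor 2 (Eef2) fell by 0.80 (SE 0.13) and the poly(A)-binding protein gene Pabpc1 by 0.93 (SE 0.10). Vimentin (Vim, -0.26), galectin 1 (Lgals1, 0.22) and the ribosomal stalk gene Rplp0 (0.37) were not called, but were with the 6 libraries alone. In the list of translation factors 12 of 27 rose and 9 fell. Among them the translation repressor gene Eif4ebp2 went from 265, 230 and 246 CPM to 89.6, 83.2 and 95.5 CPM (-1.47, SE 0.11), and the helicase gene Eif4a2, which hosts small nucleolar RNAs, rose by 0.98 (SE 0.30), not called with GC and length trends removed (0.47).

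CGR8 stem cells, grown in another medium, were exposed to cycloheximide for the same time, and the difference between the lines in the 5 h response was tested in a model of all 30 libraries. Of 17549 genes tested, 2329 (13.3%) differed between the lines, 1435 more positive in CGR8 and 894 more positive in NIH/3T3. The median difference over all genes was 0.13. Of the genes called in NIH/3T3, 6520 had a value in CGR8, 4305 were called in both lines, and 4079 of these in the same direction. The share of all genes called in CGR8 and their median there are not given here. These counts and the CGR8 medians below therefore stand without a background. The sterol genes had a median of -0.30 in CGR8, and of the 30 in the model 11 had a more positive response there and 1 a more negative one. These counts were 8 and 1 with library size scaling, 7 and 1 without the CGR8 5 h replicate A and 6 and 1 without the CGR8 5 h replicate B. Insig1 fell from 157 to 168 CPM to 66.5 to 80.5 CPM in CGR8, a difference between the lines of 1.55 on the log2 scale (adjusted p 2.03e-08). The heat-shock list had a median of -0.24 in CGR8, with 8 of 16 members more positive and none more negative, also with library size scaling, but 5 and none without the CGR8 5 h replicate A or B. Hspa8 fell there from 2486, 3490 and 2668 CPM to 1819, 1642 and 1395 CPM (difference 1.75, adjusted p 2.35e-05), and Dnajb1 was at 98.6 to 130 CPM before and 100.3 to 119 CPM after (difference 1.41). The secreted serum-response genes had a median of -0.55 over 15 members in CGR8, and 10 of 27 differed toward NIH/3T3 and 1 toward CGR8, or 11 and 1 with library size scaling. Among calls of a difference, 61.6% were more positive in CGR8, but 31.5% when libraries were scaled by size alone and 28.5% without the CGR8 5 h replicate A, so that directions over all genes are not read from this comparison.

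Several of the genes named above overlap another annotated gene, and the use of strand in counting is not given in the sources used here, so their counts are uncertain. Overlaps on the opposite strand are those of Txnip with Gm15441, Pik3r2 with 6330537M06Rik, Sphk1 with Gm29292, Tnc with 8030451A03Rik, Edn1 with Gm47118, Junb with Prdx2, Jun with Junos, Fosl1 with Ccdc85b, Timp3 with Syn3 and Zfas1 with Znfx1. Snhg1, Snhg12, Zfas1, Gas5, Hspa8, Nop56 and Eif4a2 hold small RNA genes on their own strand, and Medag and Srd5a1 overlap predicted genes there.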

How the data were processed

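RNA of 30 samples was sequenced, 3 for each of 2 lines at 0, 1, 2, 5 and 48 h, and the 6 NIH/3T3 libraries at 0 and 5 h are compared here. The authors deposited read counts per gene, 1 column per library, and 0 columns were left out. That these are raw counts was read from the values, which are whole numbers with unequal totals. RNeasy columns and a stranded mRNA ligation kit were used, per the labels' protocols. STAR, DESeq2 and GRCm39 are named without a role in the submitters' processing notes. Symbols were matched for 51880 of 57186 identifiers (90.7%) through GENCODE M21 on GRCm38, another build, which was used for symbols, GC content, length and overlaps but for no gene coordinates.

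The analysis used edgeR 4.0.16 under R 4.3.3. Genes were kept by filterByExpr (minimum count 10, minimum total 15), libraries were scaled by TMM, and 1 quasi-likelihood model with a coefficient per time was fitted to the 15 NIH/3T3 libraries, so that all times share the estimate of spread. P-values were adjusted by the Benjamini-Hochberg method over all 13941 genes. Levels are CPM on TMM-scaled totals. Line differences are interactions over 30 libraries. Standard errors were derived from the fold change and its F statistic. Totals of 20.2 to 30.5 M counts make genes of low CPM the least precise. The procedure was tested on simulated data.

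The comparison, the 44 gene lists and the tests were chosen with earlier results of these data known. Named genes are the 15 largest rises and falls (called, at least 10 CPM, no overlap, no predicted genes or pseudogenes), the first 4 members and the most changed members (at least 5 CPM) of each list, all members of lists of up to 12, the 10 most abundant genes, and the 2 largest line differences in each direction. Junb, Hmgcs1, Spry1, Dusp4, Dusp7 and Dusp8 were added after their values were seen. Some genes that this rule names are not reported here. Alternatives were RLE or library-size scaling, DESeq2 1.42.0, voom with quality weights in limma 3.58.1, other filters, the 6 libraries alone, a replicate block, each library left out, and, added after seeing the data, removal of GC trends, of GC and length trends, and of 1 h replicate C with 2 h replicate A, which stood apart.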

Additional observations from a re-analysis of the deposited data

Results flagged for a closer look

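The results listed here differed between the 2 cell lines in a test of the difference itself, edgeR's interaction term with adjustment over 17549 genes. Each value is the log2 fold change at 5 h in CGR8 minus that in NIH/3T3. The lines differ in cell type and medium, which cannot be told apart.

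Among genes that rose in NIH/3T3, the difference was -1.44 for Txnip, which went from 74.6 to 80.0 CPM to 244 to 269 CPM in CGR8, -0.70 for Arrdc4 and -1.58 for Gadd45b, so that the 3 rose in both lines and less in CGR8. It was -1.69 for Atf4, which fell in CGR8 from 136 to 149 CPM to 55.6 to 86.5 CPM, -3.14 for Socs2, which fell there from 67.1 to 78.0 CPM to 37.8 to 43.3 CPM, and -2.79 for Serpinb9b, which went from 62.6, 67.3 and 65.6 CPM to 125, 124 and 118 CPM in NIH/3T3 and from 12.1, 13.1 and 12.4 CPM to 3.20, 3.53 and 2.88 CPM in CGR8. The value was -3.16 for Atf3 and -3.16 for Edn1, whose levels in CGR8 did not exceed 4.36 CPM, and -1.59 for Timp3, which did not exceed 1.26 CPM there. Neat1, a nuclear noncoding RNA, went from 21.9, 14.8 and 17.9 CPM to 48.3, 49.8 and 49.3 CPM in NIH/3T3, and its difference of -2.41 was not called without the CGR8 0 h replicate A or C. The 0 h replicate B of CGR8 stood at 2.79 CPM, and the others at 14.3 CPM or more.

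Among genes that fell in NIH/3T3, the difference was 3.01 for Egr1, which did not exceed 1.21 CPM in CGR8, 2.07 for Junb, which rose there from 16.3 to 18.1 CPM to 27.7 to 33.7 CPM, 1.55 for Insig1 of the sterol genes, 1.75 for Hspa8 and 1.41 for Dnajb1 of the chaperones, and 0.98 for Hmox1. Whether the reads counted on the next pair of features come from ribosomal RNA was not tested. Mir6236, a short annotated RNA, had a difference of 3.01, going from 17.8, 21.8 and 18.8 CPM to 8.94, 7.44 and 5.07 CPM in NIH/3T3 and from 18.4, 33.9 and 19.3 CPM to 50.1, 101 and 49.3 CPM in CGR8. The identifier ENSMUSG00000119584, for which no symbol was matched, had a difference of 2.45. It was called lower in NIH/3T3, at -0.70, a call lost in 4 of 14 alternatives, among them DESeq2. In NIH/3T3 its libraries overlapped, at 2230, 1610 and 1413 CPM at 0 h and 1422, 917 and 900 CPM at 5 h, and in CGR8 it went from 1859, 2231 and 1741 CPM to 3966, 10674 and 3869 CPM. For both of these the CGR8 5 h replicate B was the highest library.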

How the results depend on the processing

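The 7112 calls at 5 h ranged from 5932 to 6569 with 1 library left out, and were 8650 with the 6 libraries alone, 9412 by voom with quality weights and 9177 without 1 h replicate C and 2 h replicate A, and the 1337 changes of at least 2-fold ranged from 1232 to 1487 with 1 library left out. The 2-fold count was 837 with GC and length trends removed and 622 where the mean had to reach 5 CPM, which tests fewer genes, and it was 1543 with no filter. The share of calls that were higher was 46.9%, and from 44.9% to 47.1% with 1 library left out. Calls of a line difference numbered 2329, and from 1601 to 3237 with 1 library left out. Their share more positive in CGR8 was 61.6% with TMM, 45.9% with RLE scaling, 31.5% by library size, 40.9% at 5 CPM or more, 50.4% with no filter, and 28.5% and 30.1% without the CGR8 5 h replicates A and B. Of 140 genes named (all but Spry1, Dusp4, Dusp7 and Dusp8), 128 were called. Of these, 111 kept their call in every alternative that gave a value for them. Most had a value in 16 alternatives, and Arrdc2, Cxcl1, Dbp and Socs2 in 15. Of the 55 values that lost a call, 36 did so with 1 library left out, 12 with GC and length trends removed and 4 with the GC trend removed. Another 20 values gained a call. Vim, Lgals1, Rplp0, Hspa5, Dusp6 and Nqo1, not called above, were called with the 6 libraries alone and by voom. They were also called without 1 h replicate C and 2 h replicate A. Of 18 line differences 17 kept their call in 17 alternatives of scaling, filter, replicate block and left-out libraries, the exception being Neat1. DESeq2, voom and removal of GC and length trends were not run on line differences. In the CGR8 libraries at 5 h, set against CGR8 at 0 h, the shortest minus the longest group was 1.53, 1.02 and 0.64. The lowest minus the highest GC group was 0.18, 0.47 and 0.83 there. Arrdc1, not called at -0.17, was 0.18 with the GC trend removed and 0.0945 with both trends removed, Lox, not called at 0.11, was -0.0825 with the GC trend removed, and Nqo1, not called at 0.20, was -0.0263 with both removed. The cause of these changes was not tested. Of 44 list medians 36 kept their sign in every alternative, and those of the autophagy, EGR and NR4A, cytokine, NF-kB, nonsense-mediated decay, Notch, ubiquitin and YAP lists did not. The 6 libraries alone and voom gave more calls in some lists: 57 and 58 cytosolic ribosomal genes higher, 9 and 9 small nucleolar RNA hosts higher, 15 and 17 genes of the endoplasmic reticulum list lower and 10 and 12 DNA replication genes lower. Without 1 h replicate C and 2 h replicate A the sterol median was -0.11 at 2 h, and of 22 secreted serum-response genes higher at 2 h, 15 were higher at 5 h.

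No shared effect of the replicate letter was detected: the correlations of same-letter deviations from the group means were 0.01, 0.05 and -0.07. With 3 libraries per group this cannot show that the samples were unpaired by design. With the letter as a replicate block, 7169 genes were called, 47.3% of them higher, 1347 of them changed at least 2-fold, and 2342 line differences were called. Depth limits the genes of low level, where 1 read weighs most.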

Other observations

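Counts at 5 h follow for further gene groups that the preceding comparison did not describe. The background is the share of all tested genes, 24% higher and 27.1% lower. Shares higher and lower lay near it for ubiquitin (22.2% and 22.2%), YAP and TEAD (28.6% and 21.4%) and autophagy genes (30% and 33.3%). For the 8 Notch genes they were 25% and 12.5%. The counts of these lists are not read as a change of the group. Of 17 circadian clock genes 10 rose and 3 fell. Nfil3, a repressor of clock output genes, went from 8.64, 8.16 and 9.80 CPM to 21.5, 21.2 and 20.7 CPM (log2 fold change 1.25, SE 0.11), and the period gene Per2 and the output gene Dbp rose by 0.77 (SE 0.23) and 0.94 (SE 0.13). Of 10 genes of the MYC and MAX network 1 rose and 5 fell. Mnt, which encodes a repressor that competes with MYC for MAX, went from 45.4, 33.8 and 43.6 CPM to 13.7, 13.6 and 16.2 CPM (-1.50, SE 0.15), and Mxi1, of the same class, fell by 0.69 (SE 0.09). Kruppel-like factors gave 3 higher and 6 lower of 12, with Klf10 at 54.6, 52.6 and 48.0 CPM before and 138, 144 and 132 CPM after (1.42, SE 0.12), Klf6 up by 0.71 (SE 0.08) and Klf16 down by 1.11 (SE 0.13). The feedback genes of BMP and TGF-beta gave 3 higher and 6 lower of 12, or 3 and 3 with GC and length trends removed. Among them the BMP target Id1 fell by 1.07 (SE 0.10) and the SMAD co-repressor gene Skil rose by 1.06 (SE 0.17).

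The cytokine list gave 6 higher and 8 lower of 16, a balance that turned to 7 and 4 with GC and length trends removed and to 6 and 4 without 0 h replicate B, 6 and 5 without 5 h replicate A and 5 and 4 without 5 h replicate B. The lower count was also 5 without 0 h replicate A or 5 h replicate C. Its SOCS inhibitors were opposed: Socs1 went from 20.3, 17.5 and 22.3 CPM to 6.51, 7.15 and 6.97 CPM (-1.54, SE 0.13) and Socs2 from 1.53, 1.02 and 1.68 CPM to 7.54, 7.02 and 7.25 CPM (2.35, SE 0.18). In the YAP and TEAD list, 4 rose and 3 fell of 14, or 3 and 4 without 0 h replicate C. Nuak2, a kinase gene, rose by 1.61 (SE 0.18), and Amotl2 and Ajuba, whose products act on the Hippo kinases, each rose by 1.18 (SE 0.15 and 0.11). Polyamine genes gave 7 higher and 1 lower of 11, or 4 and 0 with GC and length trends removed. The antizyme inhibitor gene Azin1 went from 220, 244 and 192 CPM to 462, 460 and 457 CPM (1.07, SE 0.15). Glycolysis genes gave 1 higher and 9 lower of 18, with Hk2, hexokinase 2, down by 1.34 (SE 0.12) and the glucose transporter gene Slc2a1 by 0.73 (SE 0.10). None of 12 BCL2 family genes rose and 6 fell, or 1 and 3 with GC and length trends removed, among them Bcl2l1 by 0.59 (SE 0.11) and Bcl2l11 by 0.60 (SE 0.15). Autophagy and lysosome genes gave 9 higher and 10 lower of 30, or 10 and 6 with both trends removed and 8 and 6 without 0 h replicate C, with Atg12, a ubiquitin-like conjugation gene, up by 1.03 (SE 0.09) and the initiating kinase gene Ulk1 down by 1.17 (SE 0.16). Of 13 histone genes that passed the filter, of 69 listed, 5 rose and none fell. Over the alternatives from 1 to 7 rose and none fell. The libraries were made from polyadenylated RNA, and the mRNAs of replication-dependent histones mostly lack a poly(A) tail. Notch genes gave 2 higher and 1 lower of 8, ubiquitin genes 2 and 2 of 9, and PI3 kinase genes 3 and 7 of 15, or 5 and 5 with both trends removed. Factors of nonsense-mediated decay gave 1 higher and 5 lower of 14, but 6 and 5 with both trends removed, and 2 or 3 lower with any single library left out.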
